A study of Mus musculus with 8 samples.

Results

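The genes described here encode the presynaptic vesicle and release machinery, 44 genes taken from a list of names out of the 34094 genes in the table. The list was drawn up with earlier results of these data known, though the rule itself uses no measured value. Each of the 44 names matched 1 gene of the table, and all 44 had enough reads to be tested. They fall into 6 roles. These are vesicle membrane proteins (8 genes), synapsins and Rab3 with its effector (5 genes), calcium sensors (6 genes), SNAREs and their partners (9 genes), active zone and priming proteins (11 genes) and endocytic proteins (5 genes).

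A nerve terminal stores neurotransmitter in small vesicles, which synapsins hold in a reserve and Rab3 proteins bring to the release site. Munc13 and RIM proteins of the active zone prepare docked vesicles for release, and calcium entry then acts through synaptotagmin on the SNARE proteins, which fuse the vesicle with the plasma membrane. Clathrin adaptors, amphiphysin, endophilin, dynamin and synaptojanin then retrieve the membrane, and NSF with its SNAP adaptors takes the used SNARE complexes apart.

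RNA came from the CA1 field of the hippocampus of C57BL/6 mice aged 2 months, and was sequenced as stranded messenger RNA libraries. The conditional knockout group (cKO, 4 libraries) carries a conditional knockout of Brpf1, a scaffold of histone acetyltransferase complexes, and the titles of these samples also speak of a Brpf1 knockdown. The wild-type group (WT, 4 libraries) is labelled only by that genotype. The labels do not name the Cre driver, the exons removed or the cells that lose the gene, and both groups are whole tissue, in which fewer cells of a type and less RNA per cell cannot be told apart. The labels speak of 3 pairs of mice and do not tie a library to a mouse, so every p-value here rests on the spread among libraries, part of which may be technical. Levels are given as normalized reads, that is, reads after division by a library's size factor, and a fold change is cKO over WT on the scale of log2(normalized reads + 1).

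Reads on genes numbered 40330226 to 46559795 per cKO library and 42346644 to 49897832 per WT library. Brpf1 averaged 945 ± 87.3 normalized reads in cKO and 1415 ± 55.1 in WT (SD, n = 4 each), without overlap, although its limma adjusted p was 0.132. The 10 markers of CA1 pyramidal cells all had reads in every library and summed to 24926 to 34979 normalized reads in cKO and 23045 to 32373 in WT. The 11 markers of dentate granule cells summed to 24832 to 31590 in cKO and 27400 to 31345 in WT. For the 12 markers of CA2 and CA3 pyramidal cells the sums were 22612 to 24850 in cKO and 21985 to 25328 in WT. Such sums do not measure cell numbers and do not show that the tissue was CA1 alone. The sample titles say hippocampus tissue. Across all genes, 5 of 26135 passed limma at an adjusted p of 0.05 (Benjamini-Hochberg), which is 0.0191%, and 2 of these, or 0.00765%, were higher in cKO. The median log2 fold change over all genes tested was −0.018.

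The promoters of 3 genes are printed first, because they belong to genes whose 4 cKO libraries all lay above the 4 WT libraries. Syp and Sh3gl2 are the 2 members with an FDR under 0.05 in the authors' deposited table, and Cplx1 had the next lowest limma p-value among such members with a single promoter window. The windows hold the 250 bases before the RefSeq start of the gene on GRCm38.p6, printed 5′ to 3′ on the gene's own strand. They lie at chrX:7638330-7638579 on the plus strand for Syp, at chr4:85205206-85205455 on the plus strand for Sh3gl2 and at chr5:108550028-108550277 on the minus strand for Cplx1. Capitals mark GC boxes (GGGCGG, or CCGCCC where the match is on the other strand) and, in Sh3gl2, the cyclic AMP response element TGACGTCA, which is the same on both strands and follows directly on a GC box.
Syp promoter: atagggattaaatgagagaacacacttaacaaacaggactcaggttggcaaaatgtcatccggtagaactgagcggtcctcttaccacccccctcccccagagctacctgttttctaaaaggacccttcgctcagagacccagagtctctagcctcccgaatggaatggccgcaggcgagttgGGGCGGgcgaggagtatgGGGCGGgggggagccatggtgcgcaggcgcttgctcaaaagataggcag
Sh3gl2 promoter: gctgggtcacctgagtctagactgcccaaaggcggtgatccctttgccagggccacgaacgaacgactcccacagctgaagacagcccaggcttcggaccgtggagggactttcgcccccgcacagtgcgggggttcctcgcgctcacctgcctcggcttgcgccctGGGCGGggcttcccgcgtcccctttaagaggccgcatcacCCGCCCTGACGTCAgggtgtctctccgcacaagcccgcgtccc
Cplx1 promoter: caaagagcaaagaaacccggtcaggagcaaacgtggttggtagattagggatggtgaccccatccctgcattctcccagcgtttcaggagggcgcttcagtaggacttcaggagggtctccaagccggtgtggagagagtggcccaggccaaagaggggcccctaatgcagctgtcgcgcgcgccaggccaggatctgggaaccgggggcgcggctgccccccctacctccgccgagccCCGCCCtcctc

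In Syp the GC boxes begin 67 and 49 bases before the start. In Sh3gl2 they begin 83 and 43 bases before it and the response element 37 bases before it, and the single GC box of Cplx1 begins 11 bases before the start. RefSeq promoter windows were found for 34 of the 44 genes and searched on both strands. A GC box lay in 24 of the 34 (70.6%), against 45.8% of 17492 protein-coding genes. The response element lay in 2 of the 34, Sh3gl2 and Syn1 (5.88%), against 2.20% of protein-coding genes. The TATA box TATAAA lay in 1, Sv2b (2.94%), against 13.7% of protein-coding genes. Such a match is a run of letters in a window and does not show that a factor binds there. The protein-coding genes were not limited to well expressed ones, as the members are, so these shares are a loose comparison.

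None of the 44 genes passed the test of cKO against WT over all genes, with limma adjusted p-values (Benjamini-Hochberg over 26135 genes) between 0.419 for Syp and 0.998 for Syn3. Their values nonetheless lay mostly to one side. The log2 fold change was above 0 for 37 of the 44, against 47.3% of all genes tested, and its median was 0.19. At an unadjusted limma p under 0.05, 16 of the 44 were higher in cKO, against 4.07% of all genes, and 0 were lower, against 4.6% of all genes; in either direction the share over all genes was 8.67%. In 6 genes, Syp, Rab3a, Syt1, Cplx1, Amph and Sh3gl2, every cKO library lay above every WT library, against 2.57% of all genes tested, and in 0 did every cKO library lie below, against 2.35%.

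The members are well expressed, so genes above a floor of expression are a closer comparison than all genes. They are called genes of like level below, but the set has no upper limit and is not matched to the members. Syn3, which sets the floor, had a mean log2 value of 8.2, while Syp had 15.5. Among the 11472 genes whose mean log2 value was at least that of the lowest member, 56.8% had a positive fold change, 7.33% were higher at an unadjusted p under 0.05, and 4.53% had every cKO library above every WT library. The median log2 fold change of these genes was 0.027. In the authors' deposited table, 2 of the 44 had an FDR under 0.05, Syp with 0.0242 and Sh3gl2 with 0.0236, against 0.657% of its 34094 genes in either direction and 0.352% higher in cKO. The count of 16 lay between 8 and 19 when 1 library was left out. It was 8 without cKO replicate 3, 10 without cKO replicate 4, and 11 without WT replicate 1 or without WT replicate 2. Fewer libraries also weaken the test. The count of 6 was 11 without WT replicate 1, 16 without WT replicate 3 and 11 without cKO replicate 2, where fewer libraries also make overlap rarer by construction. The shares over all genes are not given with a library left out, so these counts cannot be set against the shares above.

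**Figure D1:**
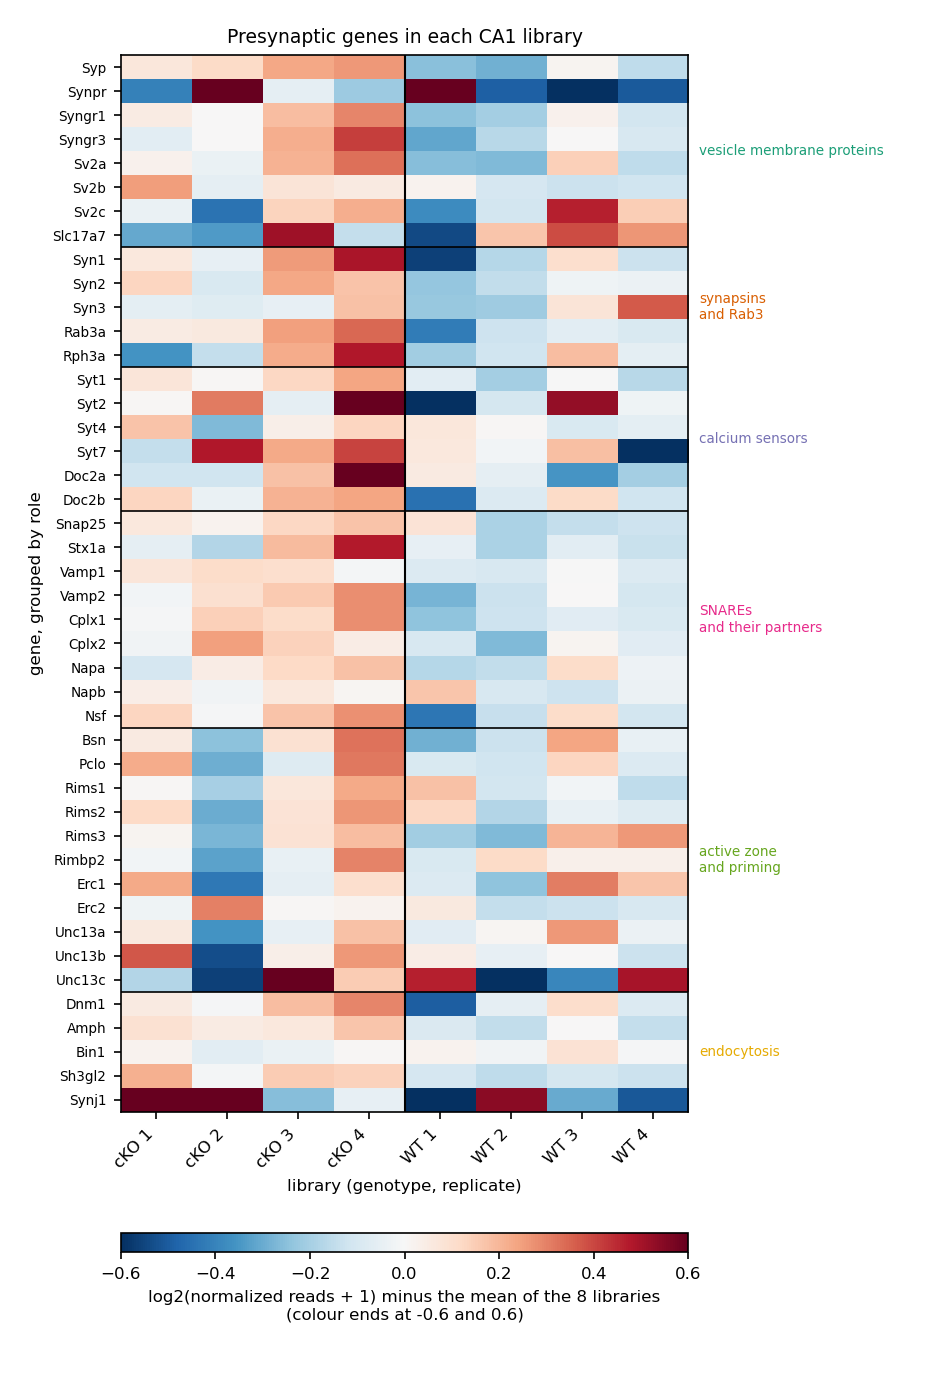
Each row is 1 of the 44 genes, grouped by role, and each column 1 library, with the 4 cKO libraries left of the 4 WT libraries; colour gives log2(normalized reads + 1) minus the mean of the 8 libraries. Most rows of the vesicle, calcium sensor and SNARE groups are redder in the cKO columns, while the active zone rows are of mixed colour, blue in cKO replicate 2 for all of them except Erc2.

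Summed over the 44 genes, the libraries held 745997 to 832405 normalized reads in cKO and 664055 to 739467 in WT, which do not overlap, and the cKO mean was 114% of the WT mean. As a share of all normalized reads the sum averaged 1.78% ± 0.0844 in cKO and 1.58% ± 0.0878 in WT (SD, n = 4 each). On this scale the groups overlap slightly, with 1.695% in the lowest cKO library and 1.697% in the highest WT library. By role, the cKO sum was 120% of the WT sum for synapsins and Rab3, 118% for calcium sensors, 118% for endocytic genes, 115% for SNAREs and partners, 112% for vesicle membrane proteins and 103.8% for the active zone. The sums of the calcium sensors, the SNAREs and the endocytic genes did not overlap between groups, and those of the other roles did. Such sums weigh the most abundant genes most. By the mean log2 value of each library, which weighs genes alike, only the SNAREs did not overlap. For all 44 genes, the lowest cKO library had a mean log2 value of 12.98 and the highest WT library 13.03. These values were 12.19 and 12.24 for calcium sensors, and 13.65 and 13.66 for endocytic genes.

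The vesicle membrane proteins had a median log2 fold change of 0.26, with 6 of 8 above 0 and 4 at an unadjusted limma p under 0.05. Syp, which encodes synaptophysin, a major membrane protein of the synaptic vesicle, had 48037, 49684, 53912 and 54956 normalized reads in cKO, against 38624, 37538, 46469 and 41333 in WT. The lowest cKO library lay above the highest WT library. The log2 fold change of Syp was 0.34 (SE 0.081, limma unadjusted p = 0.00184), so its cKO mean was 126% of the WT mean.

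Syngr1 encodes synaptogyrin 1, a tetraspan vesicle protein related to synaptophysin. It had 15724, 15196, 17258 and 18580 normalized reads in cKO, against 12805, 13194, 15471 and 14044 in WT. Only WT replicate 3 reached into the cKO range, and the log2 fold change was 0.27 (SE 0.086, limma unadjusted p = 0.0111). Syngr3, a synaptogyrin that binds the dopamine transporter, had 4611, 4824, 5613 and 6433 in cKO, against 3884, 4295, 4829 and 4511 in WT. Here too WT replicate 3 overlapped the lower cKO libraries, and the log2 fold change was 0.29 (SE 0.11, limma unadjusted p = 0.0282).

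Sv2a encodes the vesicle glycoprotein that is the binding site of the antiepileptic levetiracetam. Its 13937, 13356, 15845 and 17228 normalized reads in cKO stood against 11483, 11426, 15154 and 12342 in WT. The groups overlapped through WT replicate 3, and the log2 fold change was 0.26 (SE 0.11, limma unadjusted p = 0.0376). Its paralog Sv2b had a smaller value of 0.16 (SE 0.076) and Sv2c one of −0.065 (SE 0.19).

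Slc17a7 encodes VGLUT1, the transporter that fills vesicles with glutamate in hippocampal pyramidal cells. It had 28423, 27794, 50031 and 31821 normalized reads in cKO, against 24189, 39423, 46156 and 42329 in WT, so that high and low libraries occurred in both groups. Its log2 fold change of −0.14 (SE 0.25) was the lowest of the 44. Synpr, which encodes synaptoporin, a synaptophysin relative known from mossy fibre terminals, was between 2147 and 3289 normalized reads in 6 libraries and at 8183 in cKO replicate 2 and 7250 in WT replicate 1. Its log2 fold change was 0.29 (SE 0.52), and it varied more between replicates than any other member.

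**Figure D2:**
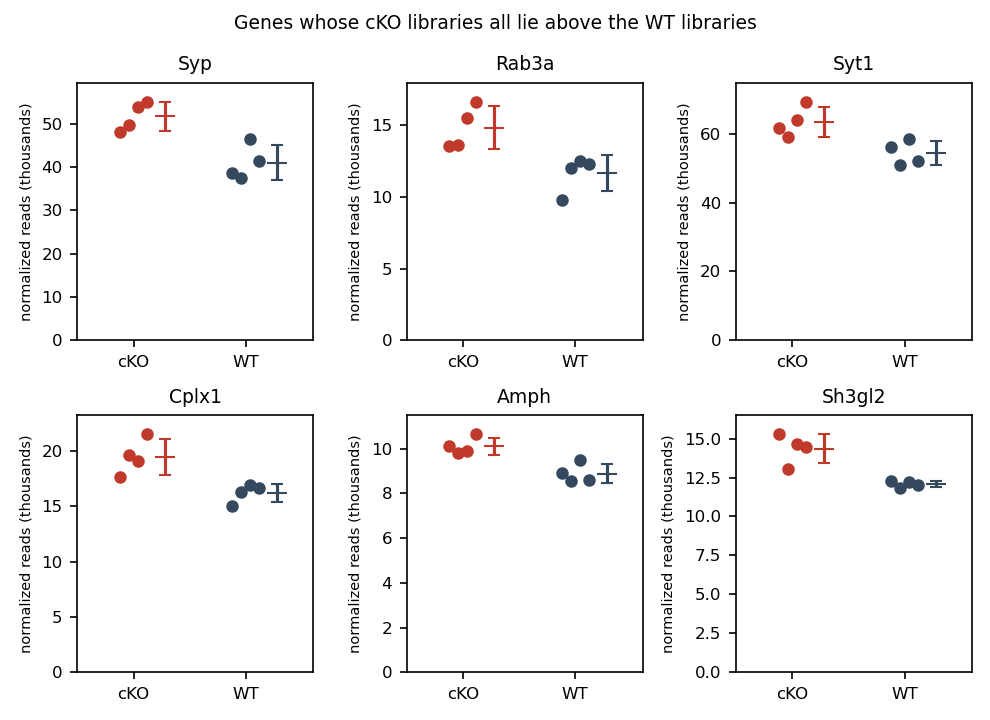
Normalized reads, on axes that start at 0, for the 6 genes whose 4 cKO libraries all lie above the 4 WT libraries; dots are libraries, with cKO left of WT, and the bar beside them is the mean with its SD. Gaps are narrow for Syt1, with 58922 reads in the lowest cKO library and 58529 in the highest WT library, and for Amph, with 9799 in cKO and 9477 in WT.

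Among the synapsins and Rab3 the median log2 fold change was 0.22, with 4 of 5 above 0 and 3 at an unadjusted limma p under 0.05. Rab3a, the main vesicle GTPase of the Rab3 family, had 13553, 13640, 15518 and 16635 normalized reads in cKO, against 9777, 12030, 12545 and 12296 in WT. All cKO libraries lay above all WT libraries. The log2 fold change of Rab3a was 0.35 (SE 0.10, limma unadjusted p = 0.00527).

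Syn1 and Syn2 encode the synapsins that tether vesicles to each other and to actin. Syn1 had 15526, 14318, 17700 and 20808 normalized reads in cKO, against 10055, 13189, 15929 and 13575 in WT, with a log2 fold change of 0.38 (SE 0.15, limma unadjusted p = 0.0267). Syn2 had 28135, 24169, 30252 and 28977 in cKO, against 21941, 23257, 25261 and 25116 in WT, with a log2 fold change of 0.22 (SE 0.084, limma unadjusted p = 0.0240). In both genes cKO replicate 2 was the low cKO library and fell within the WT range, and for Syn1 cKO replicate 1 did so too. Syn3, the third synapsin, was expressed at a far lower level, with 281 to 335 normalized reads in cKO and 253 to 383 in WT, and had a log2 fold change of −0.0012 (SE 0.16). Rph3a, whose product rabphilin binds Rab3, ranged from 8052 to 14371 in cKO and from 8919 to 11707 in WT, with a log2 fold change of 0.10 (SE 0.16).

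All 6 calcium sensors had a log2 fold change above 0, with a median of 0.27, and 2 had an unadjusted limma p under 0.05. Syt1 encodes synaptotagmin 1, the fast sensor for evoked release in forebrain neurons. It had 61642, 58922, 63975 and 69201 normalized reads in cKO, against 56080, 50893, 58529 and 52201 in WT. The groups did not overlap, though by a narrow margin, and the log2 fold change was 0.22 (SE 0.073, limma unadjusted p = 0.0120).

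Doc2b, a high-affinity calcium sensor linked to spontaneous release, had 4926, 4380, 5202 and 5307 normalized reads in cKO, against 3307, 4263, 4872 and 4151 in WT. WT replicate 3 overlapped the cKO range, and the log2 fold change was 0.27 (SE 0.12, limma unadjusted p = 0.0425). Without WT replicate 1 it was 0.16, with a limma unadjusted p of 0.119. Its relative Doc2a had few reads, 316 to 532 in cKO and 269 to 357 in WT, and a log2 fold change of 0.28 (SE 0.18).

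The 2 largest values among the sensors came from genes with a wide spread. Syt7, a slow sensor for asynchronous release and facilitation, had a log2 fold change of 0.49 (SE 0.31), with 12791 to 19709 normalized reads in cKO and 6114 to 16014 in WT, where replicate 4 alone was at 6114. Syt2, a fast sensor best known from hindbrain and from parvalbumin interneurons, had a log2 fold change of 0.43 (SE 0.35), with 775 to 1222 in cKO and 335 to 1161 in WT. Syt4, a synaptotagmin that does not drive fast release, had a log2 fold change of 0.036 (SE 0.097). Syt2 made up 1.47% ± 0.267 of the summed Syt1 and Syt2 reads in cKO and 1.37% ± 0.564 in WT (SD, n = 4 each), a difference within the spread between libraries.

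The SNAREs and their partners were the role with the most members on 1 side, with all 9 log2 fold changes above 0, a median of 0.21 and 5 at an unadjusted limma p under 0.05. This holds for these 9 genes. Of 25 other SNAREs and partners tested, 14 had a log2 fold change above 0 and 11 below. Snap25 encodes the plasma membrane SNARE with a pair of SNARE helices. It had 99793, 97025, 103935 and 107429 normalized reads in cKO, against 100997, 83639, 86351 and 87583 in WT. WT replicate 1 was the library that overlapped, and the log2 fold change was 0.19 (SE 0.073, limma unadjusted p = 0.0255).

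Vamp2, or synaptobrevin 2, is the vesicle SNARE of most forebrain synapses. It had 33335, 36037, 37602 and 40971 normalized reads in cKO, against 27752, 30813, 33781 and 31309 in WT. WT replicate 3 lay just above the lowest cKO library, and the log2 fold change was 0.26 (SE 0.083, limma unadjusted p = 0.0105), or 0.16 under quantile normalization. Vamp1 had 4984 to 5426 in cKO and 4701 to 5022 in WT, with a log2 fold change of 0.13 (SE 0.064). Vamp1 made up 12.5% ± 1.23 of the summed Vamp1 and Vamp2 reads in cKO and 13.5% ± 0.757 in WT (SD, n = 4 each), and these shares overlapped.

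Complexins clamp and promote fusion of the assembled SNARE complex. Cplx1 had 17637, 19596, 19108 and 21510 normalized reads in cKO, against 14993, 16255, 16890 and 16627 in WT, without overlap, and a log2 fold change of 0.26 (SE 0.075, limma unadjusted p = 0.00540). Cplx2 had 69950, 84376, 78301 and 73310 in cKO, against 66433, 59166, 71913 and 67687 in WT, and a log2 fold change of 0.21 (SE 0.081, limma unadjusted p = 0.0288). Of the Cplx2 libraries, WT replicate 3 overlapped with cKO replicate 1. Cplx1 made up 20.3% ± 1.66 of the summed complexin reads of this pair in cKO and 19.7% ± 1.36 in WT (SD, n = 4 each), so the balance between both genes differed by less than the spread.

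Nsf encodes the ATPase that takes SNARE complexes apart. It had 33874, 30849, 34899 and 37492 normalized reads in cKO, against 22927, 28147, 33395 and 28708 in WT. The low library was WT replicate 1 and the overlap came from WT replicate 3, with a log2 fold change of 0.29 (SE 0.11, limma unadjusted p = 0.0240). Without WT replicate 1 it was 0.19, with a limma unadjusted p of 0.0623. Its adaptors Napa and Napb, alpha-SNAP and beta-SNAP, had smaller log2 fold changes of 0.12 (SE 0.087) and 0.044 (SE 0.074). Stx1a, the syntaxin partner of Snap25, had 2767 to 4346 normalized reads in cKO and 2741 to 3018 in WT, and a log2 fold change of 0.22 (SE 0.13) that rested on cKO replicates 3 and 4.

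**Figure D3:**
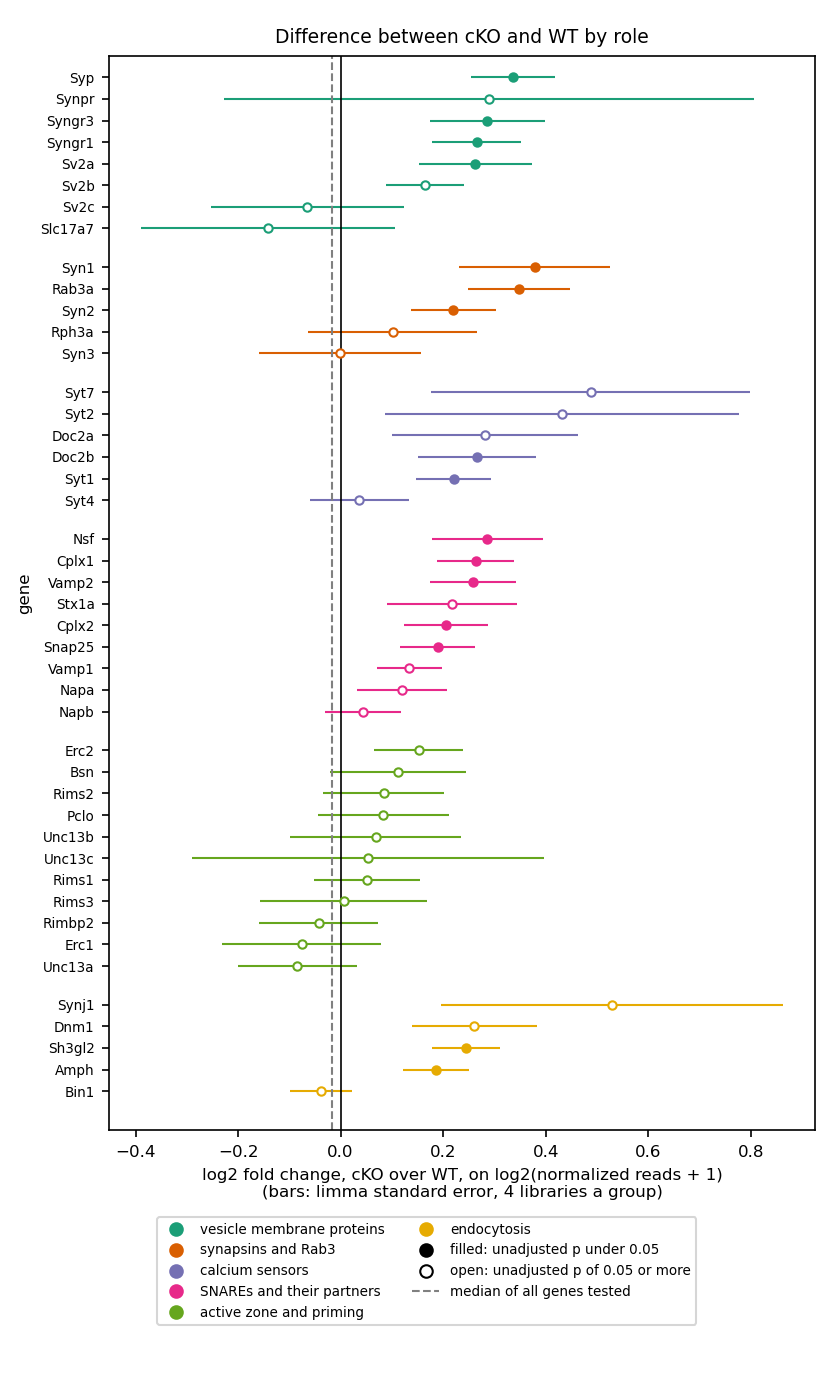
Log2 fold change of cKO over WT for each of the 44 genes, with its limma standard error (4 libraries a group), sorted within each role; filled dots have an unadjusted p under 0.05 and the dashed line is the median of all genes tested, at −0.018. All 9 SNARE genes and all 6 calcium sensors lie right of 0, and no active zone gene is filled.

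The active zone and priming genes had the lowest median log2 fold change of the 6 roles, a difference between roles that was not tested. It was 0.053, 8 of 11 were above 0, and 0 had an unadjusted limma p under 0.05. Unc13a encodes Munc13-1, the main priming factor of glutamatergic terminals. It had 15243, 11416, 14149 and 16537 normalized reads in cKO, against 13956, 14757, 17507 and 14269 in WT. The groups overlapped widely, with the lowest value in cKO replicate 2 and the highest in WT replicate 3, and the log2 fold change was −0.084 (SE 0.12), or 0.021 without cKO replicate 2, −0.012 without WT replicate 3 and −0.16 without cKO replicate 4.

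The other Munc13 genes, Unc13b and Unc13c, had log2 fold changes of 0.068 (SE 0.17) and 0.053 (SE 0.34). Bsn and Pclo, which encode the large scaffolds bassoon and piccolo, had 0.11 (SE 0.13) and 0.083 (SE 0.13). Rims1 and Rims2, whose long products bind Rab3 and calcium channels, and Rims3, which encodes a short RIM form, had 0.052 (SE 0.10), 0.084 (SE 0.12) and 0.0058 (SE 0.16). Each of these differences was smaller than its standard error. Rimbp2, which links RIM to calcium channels, had −0.043 (SE 0.12). Of the ELKS scaffolds, Erc1 had −0.076 (SE 0.15) and Erc2 had 0.15 (SE 0.087), the highest of this role.

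Ratios within a library give the balance between release site and vesicle genes without regard to depth. The summed active zone reads were 0.484 ± 0.0581 of the summed vesicle membrane reads in cKO and 0.524 ± 0.0318 in WT (SD, n = 4 each), with overlap. The ratio of Unc13a to Syp reads was 0.278 ± 0.0393 in cKO and 0.369 ± 0.0205 in WT, and its range of 0.230 to 0.317 in cKO lay below that of 0.345 to 0.393 in WT. That pair joins the gene with the lowest limma p of the 44 to 1 of the few with a negative fold change, so the gap is a description. For Bsn over Syp the ratio was 0.296 ± 0.0369 in cKO and 0.345 ± 0.0257 in WT, with overlap.

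Of the 5 endocytic genes, 4 had a log2 fold change above 0, the median was 0.25, and 2 had an unadjusted limma p under 0.05. Sh3gl2 encodes endophilin A1, which bends membrane and recruits dynamin and synaptojanin. It had 15271, 13044, 14618 and 14486 normalized reads in cKO, against 12279, 11826, 12241 and 12024 in WT. The WT libraries lay close together and all below the cKO libraries, and the log2 fold change was 0.25 (SE 0.066, limma unadjusted p = 0.00372).

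Amph, or amphiphysin, had 10098, 9799, 9893 and 10639 normalized reads in cKO, against 8924, 8538, 9477 and 8587 in WT. These groups did not overlap, and the log2 fold change was 0.19 (SE 0.064, limma unadjusted p = 0.0150). Bin1, which encodes amphiphysin 2 and is also made outside neurons, had 9427 to 10022 in cKO and 9713 to 10469 in WT, and a log2 fold change of −0.038 (SE 0.060). Bin1 had the smallest spread between replicates of the 44 genes, with a pooled SD of 0.045 on the log2 scale.

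Dnm1 encodes dynamin 1, the neuronal GTPase that cuts vesicles from the membrane. It had 27036, 25910, 29573 and 31902 normalized reads in cKO, against 18484, 25127, 28044 and 24598 in WT. WT replicate 3 overlapped the cKO range and WT replicate 1 was low, and the log2 fold change was 0.26 (SE 0.12, limma unadjusted p = 0.0556). It was 0.14 without WT replicate 1 and 0.17 under quantile normalization. Synj1, the phosphatase synaptojanin 1, had the highest log2 fold change of the 44, 0.53 (SE 0.33). Its reads were 15983, 16739, 8569 and 9886 in cKO, against 5921, 14856, 8279 and 7183 in WT, so that 3 libraries, from both groups, stood well above the rest.

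Set per kilobase of merged exon, which allows a rough comparison of levels between genes, the 44 genes spanned a wide range. Merged length takes in all annotated exons of a gene, not only those of the transcripts made in this tissue. Genes with many unused exons can therefore read low, so the order depends in part on the annotation. Cplx2 stood first with 15520 ± 1275 normalized reads per kb in cKO and 13454 ± 1076 in WT, followed by Snap25 with 15027 ± 674 in cKO and 13200 ± 1141 in WT (SD, n = 4 each). Vamp2 (8913 per kb over the 8 libraries), Syp (8889) and Cplx1 (8144) came next, then Syt1 (7068), Slc17a7 (6727), Rab3a (5952), Dnm1 (5017) and Syn1 (4588). The active zone began lower, with its first gene, Unc13a, in place 27 at 1136 ± 173 per kb in cKO and 1198 ± 129 in WT.

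At the low end stood Sv2c, Doc2a and Syt2, with 127, 125 and 112 normalized reads per kb over the 8 libraries, and then Rims3 with 44.2 and Syn3 with 24.3. Most neighbours in this order overlapped in their 8 libraries. Only 4 steps did not, those after Snap25, Rimbp2, Rims2 and Rims3. Within families the 8 libraries of these paralogs did not overlap: Syn1 and Syn2 above Syn3, Syt1 above Syt2, and Vamp2 above Vamp1.

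**Figure D4:**
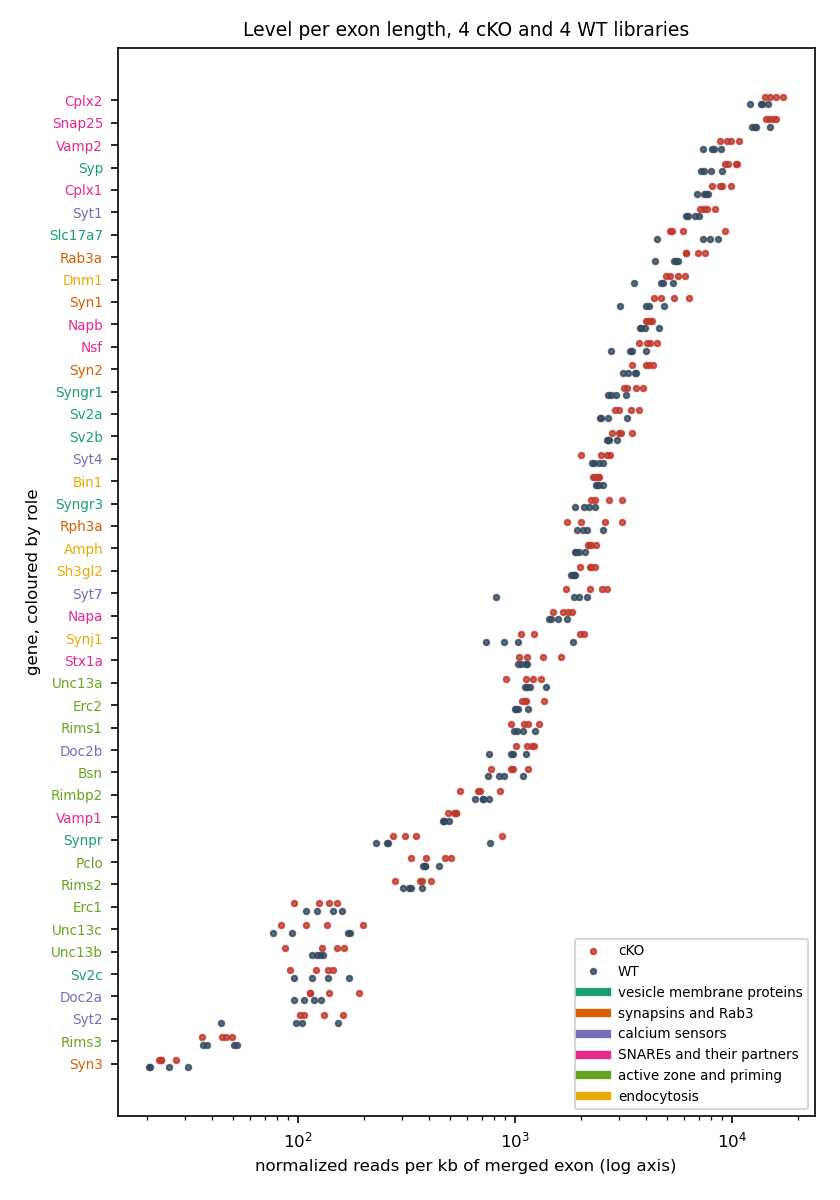
Normalized reads per kb of merged exon on a log axis, 1 row per gene from the highest (Cplx2) to the lowest (Syn3); red dots are the 4 cKO and dark dots the 4 WT libraries, and gene names are coloured by role. SNARE and complexin genes fill 4 of the first 5 places, and active zone genes begin at place 27.

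Shorter members had higher median log2 fold changes than longer ones. Across the 44 genes, the Spearman correlation of log2 fold change with merged exon length was −0.42, and over 11471 genes of like level it was −0.14; genes are not independent replicates, and the points share the same 8 libraries. The 15 members with the shortest exons (2.07 to 4.85 kb) had a median log2 fold change of 0.26, the 14 next ones (4.85 to 8.25 kb) 0.21, and the 15 longest (8.25 to 22.7 kb) 0.084. Over all genes of like level in the same length ranges the medians were 0.053, 0.021 and −0.013.

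The counts followed the same order. At an unadjusted limma p under 0.05, 9 of the 15 shortest members, 5 of the 14 next and 2 of the 15 longest were higher in cKO, against 10.1%, 5.88% and 3.50% of genes of like level in these ranges. Active zone genes are long and most others shorter, so role and length move together among the 44 genes, and their parts in the result were not tested.

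**Figure D5:**
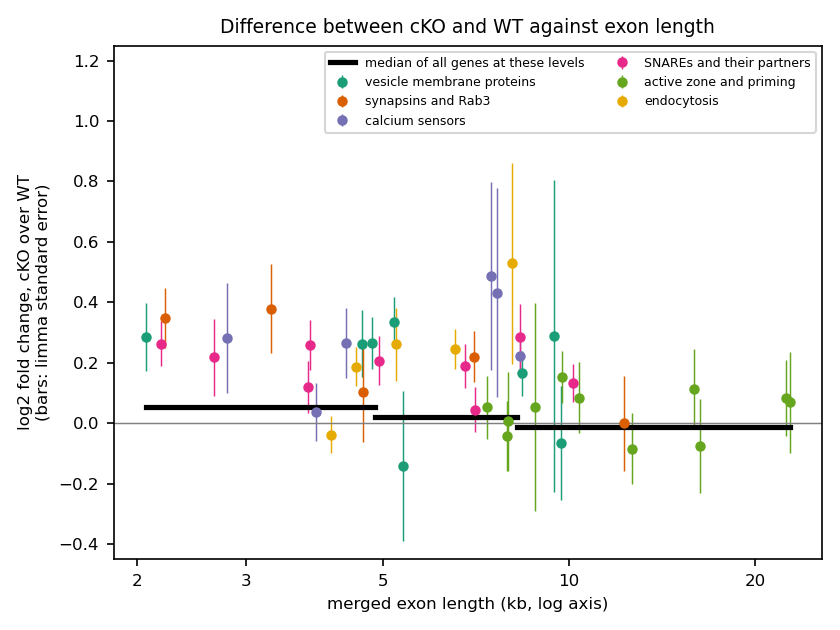
Log2 fold change of cKO over WT with its limma standard error against merged exon length (kb, log axis) for the 44 genes. Colours give the role. Black lines are the medians of all genes at or above the lowest member's level in each length range. They lie at 0.053, 0.021 and −0.013. The active zone genes fill most of the right side, close to 0.

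After each group's mean was taken off, the median Pearson correlation over the 946 pairs of genes was 0.33 across the 8 libraries, and 70.7% of pairs were above 0. Over all pairs of the 11472 genes of like level the median was 0.0096, with 50.7% above 0. This is a description over genes that share libraries and depth. The median pooled SD between replicates was 0.18 on the log2 scale, against 0.15 for genes of like level, and it ranged from 0.045 for Bin1 to 0.79 for Synpr. After Synpr the widest were Syt2 with 0.57, Unc13c with 0.56, Synj1 with 0.53, Syt7 with 0.50 and Slc17a7 with 0.41.

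Of 119 further presynaptic genes in 6 lists, 117 were tested. None passed limma over all genes. A log2 fold change above 0 was seen in 76, against 47.3% of all genes tested and 56.8% of genes of like level. At an unadjusted limma p under 0.05, 24 were higher, against 4.07% of all genes and 7.33% of genes of like level. At this threshold 1, Stxbp2, was lower, against 4.6% of all genes. The median was 0.069. By list the median was 0.26 for synucleins and other terminal proteins (7 genes), 0.19 for other synaptotagmins (10), 0.14 for other vesicle proteins and transporters (23), 0.069 for other endocytosis genes (33), 0.040 for other SNAREs and partners (25) and −0.0033 for other active zone and priming genes (19). The active zone list had the lowest median of these 6 lists, but the difference between lists was not tested. Exon length was not examined for these genes.

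In 7 of these 117 genes every cKO library lay above every WT library, a share not far from the 4.53% of genes of like level (2.57% of all genes tested), so the 7 are named as a description only. Gak, a kinase that helps uncoat clathrin vesicles, averaged 3674 ± 303 normalized reads in cKO and 2910 ± 222 in WT, and Sncb, beta-synuclein, averaged 11263 ± 1120 in cKO and 8662 ± 935 in WT (SD, n = 4 each). Both had an FDR under 0.05 in the authors' deposited table, 0.0251 for Gak and 0.0347 for Sncb, though neither passed limma over all genes. The others were the SNARE gene Snap47 with a log2 fold change of 0.35 (SE 0.099), the synaptotagmin Syt12 with 0.40 (SE 0.12), the proton pump subunits Atp6v0d1 with 0.21 (SE 0.070) and Atp6v1a with 0.15 (SE 0.055), and the clathrin light chain gene Cltb with 0.18 (SE 0.060).

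None of the markers of other cell types named here passed limma over all genes, but some lists lay to one side. The 18 oligodendrocyte markers all had negative log2 fold changes (median −0.31) and summed to 131562 to 178443 normalized reads in cKO and 200912 to 207641 in WT, without overlap. Their mean log2 values per library did overlap, at 10.95 to 11.43 in cKO and 11.40 to 11.74 in WT. The 14 choroid plexus markers were all negative too (median −0.67), with sums of 11329 to 50406 in cKO and 5902 to 176464 in WT, and so were the 11 ependymal markers (median −0.50). At an unadjusted limma p under 0.05, 1 of the 14 and 4 of the 11 were lower. The astrocyte, microglia and endothelial lists had medians of 0.018, 0.13 and −0.027. None of these genes was at 0 in any library. Their part in the members' result was not tested.

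General neuronal markers shared the members' tendency. Of 15 pan-neuronal markers, 13 had a positive log2 fold change, against 47.3% of all genes and 56.8% of genes of like level. Their median was 0.11. At an unadjusted limma p under 0.05, 5 of the 15 were higher in cKO and 1 lower, against 4.07% and 4.6% of all genes. In 4 every cKO library lay above every WT library, against 2.57% of all genes. Among genes of like level, 7.33% were higher at this p and 4.53% had every cKO library above. Of the 44 members, 16 were higher and 6 had every cKO library above. Whether the members differ from neuronal genes in general was not tested. The summed pan-neuronal reads, 352736 to 452627 in cKO and 408427 to 431586 in WT, averaged 92.9% of WT. The 15 interneuron markers had a median of 0.15 with 12 positive, and summed to 58225 to 72615 in cKO and 51992 to 66779 in WT. The 20 immediate early genes, which follow neuronal activity, had a median of 0.015, with sums of 27361 to 50211 in cKO and 34114 to 41900 in WT. The sums of these 3 lists overlapped between groups.

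Some members share exon sequence with a gene on the other strand, and the sources used here do not say whether reads were counted by strand. The overlap is 875 bases between Syp and Gm14703, 1733 between Syn3 and Timp3, 1103 between Doc2a and Ino80e and 495 between Unc13a and Colgalt1, by the GENCODE annotation. If they were not counted by strand, reads from such stretches cannot be told apart. Timp3 averaged 4653 ± 594 normalized reads in cKO and 4264 ± 460 in WT (SD, n = 4 each), well above Syn3, while Gm14703 averaged 151 ± 45.8 in cKO and 216 ± 55.8 in WT, far below Syp. The overlaps of Syn1, Syn2 and Rab3a with neighbours are shorter, at 9, 90 and 29 bases.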

How the data were processed

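From the authors comes a table of log2 values for 34094 genes in 8 libraries of hippocampal CA1 tissue (4 cKO, 4 WT), prepared with a stranded kit per the labels' protocols. The deposited log2 scale is log2 of size-factor-normalized reads plus 1, since undoing it gives whole multiples of a fixed step in each library for 100% of values (tolerance 0.001 reads). Depth is the sum of the reads so recovered. Per the submitters' processing notes, STAR, StringTie, DESeq2 and the build mm9 were used. Not given in the sources used here: their roles, versions, the annotation and the strand setting. Alongside, the authors deposited a log2 fold change, a p-value and an FDR per gene, from a test that is not stated beyond the tool names. 2 columns of group means were not used.

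cKO was compared with WT by limma 3.58.1 (R 4.3.3), with a mean-variance trend and robust estimation and without covariates, on the log2 scale with its pseudocount of 1. Genes entered where at least 4 libraries reached a normalized value of 1, which left 26135, and p-values were adjusted over these by Benjamini-Hochberg (threshold 0.05). A count test had been planned in case of raw counts. The script was tested on simulated data. Exon lengths and overlaps came from GENCODE vM21 (GRCm38), matched by gene ID, and none of its coordinates is printed because the builds differ. Promoter sequences are credited to RefSeq (GRCm38.p6).

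The members and all gene lists were chosen with earlier results of these data known. Values of every library are given for members whose groups do not overlap, members with an unadjusted p under 0.05, and the most highly expressed member of each role; Slc17a7 and Synj1 were added after their values were seen. Other presynaptic genes were named where their groups do not overlap and the unadjusted p is under 0.05; Stxbp2 was named after its value was seen. The smallest exact permutation p that 4 libraries against 4 allow is 0.0286. Alternatives were TMM scaling and limma-voom on recovered reads, quantile normalization, no filter, a stricter filter (at least 10), a pseudocount of 0.1 instead of 1, array weights, the replicate number as a block, and leaving out each library in turn. Figures were drawn with matplotlib 3.10.9.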

Additional observations from a re-analysis of the deposited data

Results flagged for a closer look

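Of the 88 groups of 4 libraries examined (44 genes in cKO and in WT), 6 held a library far from the other 3 by Dixon's criterion, where chance flags about 1 in 20 groups, or 4.4 here. Synpr had 8183 normalized reads in cKO replicate 2, against 2579 to 3289 in the other cKO libraries. It also had 7250 in WT replicate 1, against 2147 to 2436 in the other WT libraries. Erc2 had 13185 in cKO replicate 2, where the other cKO libraries had 10491 to 10862. Syn3 had 335 in cKO replicate 4, where the others had 281 to 286. Pclo had 10007 in WT replicate 3, against 8408 to 8632 in the other WT libraries, and Vamp1 had 5022 in the same library, against 4701 to 4751. None of the 6 belongs to a gene with an unadjusted limma p under 0.05.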

How the results depend on the processing

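Under all 16 alternatives, 0 of the 44 genes and 0 of the other presynaptic genes passed limma over all genes, and the lowest adjusted p of a member lay between 0.254 and 0.777. The members' median log2 fold change lay between 0.14 (quantile normalization) and 0.21. The count of members at an unadjusted p under 0.05 lay between 8 and 20, with 8 to 19 when 1 library was left out, and all were higher in cKO under every alternative. The count whose groups do not overlap lay between 6 and 16, with 6 to 16 when 1 library was left out. For both counts, the share over all genes is not given under the alternatives. All genes past the test numbered 5 in the main fit, 8 with array weights, and 4 to 7 when 1 library was left out. Unc13a lay between −0.16 and 0.021 when 1 library was left out and was above 0 without cKO replicate 2; the cause was not tested. The other 17 genes described in full kept their direction under all 16 alternatives. No scaling moved the median of all genes by over 0.1.

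The labels do not say whether the replicate numbers pair the libraries. Same-numbered libraries correlated at −0.0037, 0.029, 0.021 and −0.040 after group means were removed, and 2 of 4 matched their own number best. Paired mice need not give high correlations here, so these values do not settle the pairing. With the number as a replicate block, 2 genes passed, 0 of them members, and 18 members had an unadjusted p under 0.05. edgeR and DESeq2 on recovered reads had been planned and were not run. The members' median standard error was 0.11, beside a median log2 fold change of 0.19, and the least covered library of any member held 253 normalized reads (Syn3).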
